A study of Mus musculus with 8 samples.

Results

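The exocyst is the complex that tethers secretory vesicles to the plasma membrane before they fuse, and its 8 subunits are encoded by Exoc1 to Exoc8. These 8 genes were taken by symbol from the 55487 gene identifiers counted in mouse left ventricle. All 8 were found, 1 identifier each, and all 8 were among the 14695 genes that passed the filter on low counts. Exoc2 brought the complex under study: it was already known to be among the genes called lower in the KO group. Its difference between the genotypes is therefore a description here, and nothing is drawn from its having passed a threshold. The other 7 subunits were taken as its partners, to ask whether Exoc2 fell alone or with them.

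RNA was sequenced from the left ventricle of C57BL/6 mice aged 12 weeks. The KO group (4 animals) carries the genotype label GPR116-/- (myocyte-specific). GPR116 is another name of ADGRF5, a receptor of the adhesion class, and no source used here gives the driver of the deletion. The NLC group (4 animals) is labelled wild-type. Both groups had 2 males (replicates 1 and 2) and 2 females (replicates 3 and 4).

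The subunits form a pair of subcomplexes, one of Exoc1 to Exoc4 and the other of Exoc5 to Exoc8, which join into the full exocyst. Small GTPases recruit the complex: Exoc2 and Exoc8 bind active RalA and RalB, and Exoc6 binds Rab11 on recycling vesicles. Exoc1 and Exoc7 bind phosphoinositides of the plasma membrane. In fat and muscle cells the complex is known for delivering the glucose transporter GLUT4 to the cell surface.

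The libraries held 26587475 to 39615408 gene reads in KO and 25328784 to 28347135 in NLC. Levels are given in CPM, a gene's reads relative to its library size after TMM scaling. The targeted gene, Adgrf5, lay at 203.0 to 239.8 CPM in KO and at 218.2 to 257.0 CPM in NLC. These ranges overlap, and such a bulk level is no check of the labels. All 8 ventricular cardiomyocyte markers were detected, with summed levels of 71800 to 84700 CPM in KO and 68500 to 81200 CPM in NLC. The 6 atrial markers summed to 369 to 1490 CPM in KO and to 389 to 6150 CPM in NLC, where replicate 4 was the highest. The 6 endothelial markers summed to 754 to 843 CPM in KO and 790 to 974 CPM in NLC, the 6 fibroblast markers to 753 to 996 CPM in KO and 873 to 947 CPM in NLC, and the 6 macrophage markers to 197 to 338 CPM in KO and 210 to 296 CPM in NLC. The 5 markers of smooth muscle and pericytes summed to 888 to 946 CPM in KO and 862 to 1040 CPM in NLC, and the 5 erythroid markers to 58.8 to 314 CPM in KO and 59.7 to 233 CPM in NLC. Of 6 skeletal muscle markers 5 had reads, summing to 216 to 1040 CPM in KO and 466 to 1060 CPM in NLC, with Myh4 at 0. All these summed ranges overlap. Single markers differed more: 3 of the 6 endothelial markers were lower in KO at an unadjusted edgeR p under 0.05. Over all genes tested, 6.18% were lower and 5.77% higher at that level. These markers were Emcn at -0.29 (SE 0.0695), Pecam1 at -0.23 (SE 0.0710) and Kdr at -0.31 (SE 0.112) on the log2 scale. The remaining endothelial markers stood at -0.17 (Cdh5, SE 0.103), -0.04 (Tie1, SE 0.0834) and 0.13 (Egfl7, SE 0.175). Among atrial markers Myl4 stood at -3.03 (SE 1.29) and Sln at -3.39 (SE 1.40), also at an unadjusted p under 0.05. Myl7 (-3.32, SE 1.54), Dkk3 (-1.58, SE 0.784) and Nppa (-0.29, SE 0.756) did not reach that level. Levels varied widely within groups: Myl4 averaged 54.2 ± 88.1 CPM in KO and 312 ± 477 CPM in NLC (SD). For Sln these were 8.87 ± 16.0 and 65.1 ± 105 CPM. The atrial sum was 6151 CPM in NLC replicate 4 and 388.5 to 841.7 CPM in the other NLC libraries. Among skeletal muscle markers Atp2a1 stood at 1.21 (SE 0.299) and Tnnt3 at 0.73 (SE 0.323), at an unadjusted p under 0.05. The ventricular marker Tnnt2 stood at 0.18 (SE 0.0768), and 0 markers passed the adjusted threshold by edgeR. In bulk tissue, fewer cells of a type and less RNA per cell cannot be told apart.

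The sequences shown are those upstream of Exoc2, the subunit that fell, and of Exoc4, the subunit with the highest fold change. Each is the part of the RefSeq promoter window (GRCm38, 5′ to 3′ on the strand of the gene) that lies outside every annotated gene. Exoc2 lies head to head with the predicted gene Gm5447, which had 2 reads in all KO libraries together and 0 in NLC, and only 110 bases separate them, at chr13:30974094-30974203 on the minus strand. The Exoc4 stretch holds 207 bases at chr6:33248878-33249084 on the plus strand. Its capitals mark CCAAT boxes that lie on the opposite strand and read ATTGG on the strand shown.
Exoc2: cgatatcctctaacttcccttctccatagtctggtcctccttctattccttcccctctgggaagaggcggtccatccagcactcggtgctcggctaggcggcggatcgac
Exoc4: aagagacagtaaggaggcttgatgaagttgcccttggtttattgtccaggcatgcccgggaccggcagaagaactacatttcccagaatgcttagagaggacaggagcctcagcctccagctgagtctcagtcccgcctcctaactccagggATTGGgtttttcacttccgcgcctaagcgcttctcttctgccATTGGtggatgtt
In the 300-base windows the 8 subunits had a GC content of 53.7% to 74%, against a median of 52.7% over 27025 promoters, and 13 to 39 CpG dinucleotides against a median of 7. Exoc2 stood at 62% GC with 21 CpG. Motifs were searched on both strands, and any match of the MEF2 core also holds a TATA box. The CCAAT box (CCAAT) was present in 2 of 8 windows (Exoc1 and Exoc4) and in 37.9% of all promoters. The GC box (GGGCGG) was present in 5 of 8 windows and in 35.9% of all promoters, and the Exoc2 window did not hold it. The E-box (CACGTG) was found in Exoc1 alone (7.24% of all promoters), and the ETS core (CCGGAAGT) in Exoc1 and Exoc3 (4% of all promoters). The TATA box (TATAAA) was in 0 of 8 windows and 14.2% of all promoters, and the cAMP response element (TGACGTCA), the NRF1 core and the MEF2 core were in 0 of 8 windows and in 1.88%, 0.977% and 0.163% of all promoters. No motif of the 8 was found in the Exoc2 window. RefSeq gave 2 windows for Exoc2 and 4 for Exoc1, and only the 1 nearest the annotated start of each gene was searched.

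Exoc2 encodes the subunit called Sec5 in yeast, a partner of RalA and RalB that also links RalB to the kinase TBK1. It spans 160.2 kb on chromosome 13 (30813919 to 30974093, GRCm38, ENSMUSG00000021357). Its level was 12.38, 14.21, 12.82 and 13.00 CPM in KO replicates 1 to 4, and 20.62, 21.13, 20.31 and 21.79 CPM in NLC replicates 1 to 4. Every KO library lay below every NLC library, with a gap between the groups far wider than the spread inside either. The means were 13.1 ± 0.786 CPM in KO and 21.0 ± 0.646 CPM in NLC (SD, n = 4 each), a log2 fold change of -0.68 (SE 0.0759, KO over NLC), or a change of -37.5%. Its reads numbered 346 to 468 per KO library and 518 to 630 per NLC library, and counting error alone gives an SD of 0.663 CPM in KO and 0.877 CPM in NLC. The spread between the 4 animals of a group was thus close to counting error.

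**Figure D1:**
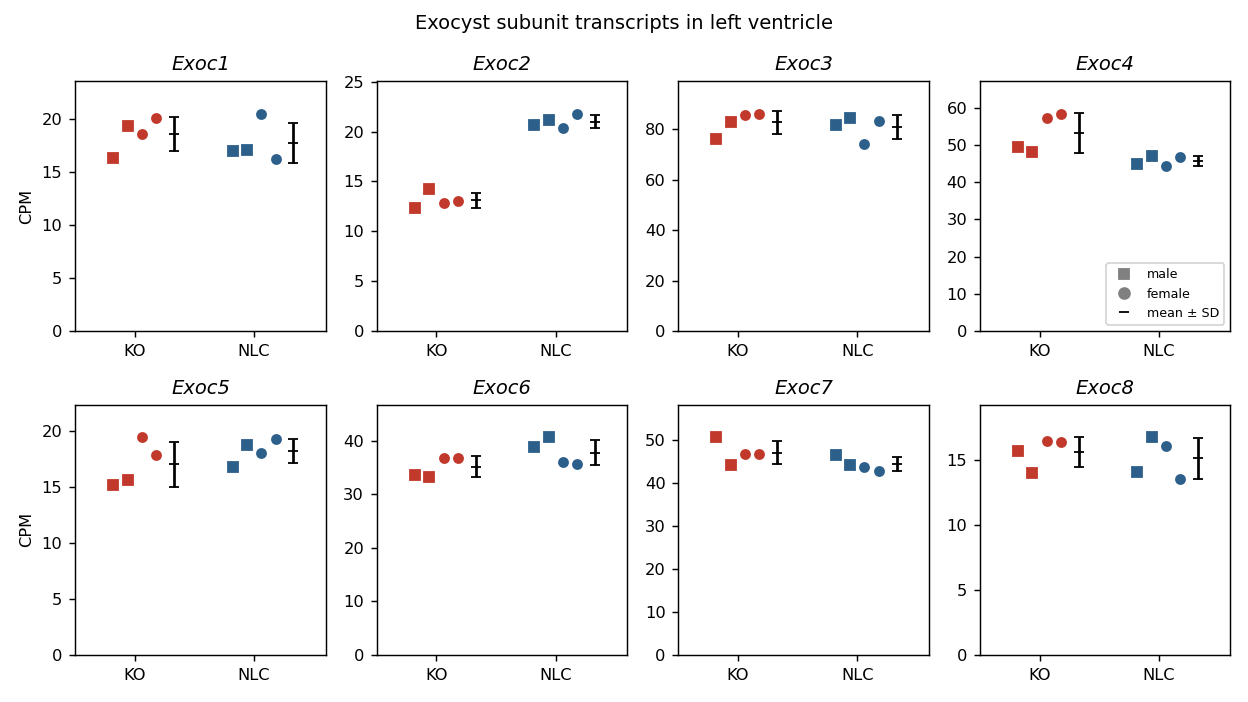
CPM of the 8 exocyst subunits in each library (squares, males; circles, females), KO left of NLC in each panel, with the group mean ± SD beside the points and each axis starting at 0. Exoc2 is the only subunit with KO below NLC without overlap (12.38 to 14.21 CPM in KO, 20.31 to 21.79 CPM in NLC), and Exoc4 the only one with KO above NLC without overlap.

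Of the 8 subunits, 1 was called lower (Exoc2) and 0 higher in KO at an edgeR adjusted p below 0.05. Over all genes tested, 0.0544% were called lower, 0.0476% higher and 0.102% in either direction. Since Exoc2 chose the set, nothing is read from its count. Of the 7 partners, 0 passed by edgeR, DESeq2 or limma voom, and 1 of them, Exoc4, had an unadjusted edgeR p under 0.05. The median log2 fold change was 0.05 over the 7 partners and -0.00504 over all genes tested. All KO libraries lay below all NLC libraries for 1 of 8 subunits (Exoc2), against 3.03% of all genes tested, and above them for 1 of 8 (Exoc4), against 3.22%. Together these make 2 of 8 subunits without overlap, against 6.25% of all genes tested. Exoc2, which chose the set, is 1 of these 2, so nothing is read from this count. Of the 7 partners only Exoc4 was without overlap. The log2 fold change was below 0 for 3 of 8 subunits and for 51.0% of all genes tested.

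Exoc4, called Sec8 in yeast, belongs to the same subcomplex as Exoc2. It measured 49.30, 48.00, 57.33 and 58.36 CPM in KO replicates 1 to 4 and 44.94, 47.07, 44.19 and 46.72 CPM in NLC replicates 1 to 4. All KO libraries lay above all NLC libraries, and the female KO libraries were the highest. The log2 fold change of 0.21 (SE 0.0718) had an unadjusted p of 0.0134 and did not pass over all genes (edgeR adjusted p = 0.344). Without NLC replicates 3 and 4, the only NLC females, it was 0.08, which is the value in males alone.

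Exoc1 and Exoc3 complete that subcomplex. Exoc1, the Sec3 subunit that contacts membrane phosphoinositides, averaged 18.6 ± 1.65 CPM in KO and 17.7 ± 1.91 CPM in NLC (log2 fold change 0.07, SE 0.0944, edgeR adjusted p = 0.770). Exoc3, the Sec6 subunit that binds a plasma membrane SNARE in yeast, averaged 82.7 ± 4.62 CPM in KO and 80.9 ± 4.71 CPM in NLC (log2 fold change 0.03, SE 0.0696, edgeR adjusted p = 0.862). The KO and NLC libraries overlapped for both genes. The sign of Exoc3 turned without NLC replicate 3, to -0.02.

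The other subcomplex had small differences of both signs. Exoc5 (Sec10), whose product binds the GTPase Arf6, measured 15.18, 15.60, 19.45 and 17.89 CPM in KO and 16.83, 18.80, 18.01 and 19.33 CPM in NLC, in the order of replicates 1 to 4. Its male KO libraries were the 2 lowest of the 8, while a female KO library was the highest. Exoc6 (Sec15), the Rab11 effector, measured 33.64, 33.24, 36.80 and 36.90 CPM in KO and 38.79, 40.67, 36.13 and 35.69 CPM in NLC. In males both KO libraries lay below both NLC libraries, and in females both lay above. The log2 fold change was -0.10 for Exoc5 (SE 0.0818, edgeR adjusted p = 0.594) and -0.11 for Exoc6 (SE 0.0756, edgeR adjusted p = 0.560).

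Exoc7 (Exo70) anchors the complex to the membrane and answers to the GTPase TC10, the product of Rhoq. It averaged 47.1 ± 2.65 CPM in KO and 44.4 ± 1.65 CPM in NLC (log2 fold change 0.09, SE 0.0662, edgeR adjusted p = 0.586). Exoc8 (Exo84), the other Ral-binding subunit, averaged 15.6 ± 1.14 CPM in KO and 15.1 ± 1.55 CPM in NLC (log2 fold change 0.05, SE 0.0961, edgeR adjusted p = 0.849). Without NLC replicate 4 the Exoc8 value was -0.02. Exoc8 had few reads, like Exoc2, with 404 to 593 per KO library and 375 to 477 per NLC library. Its SE was nevertheless above the 0.0759 of Exoc2.

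The 95% intervals of the partners show what size of fall these data leave possible. Over both sexes the lowest bounds were -0.29 for Exoc5 and -0.27 for Exoc6 on the log2 scale, that is, changes of -18.0% and -17.3%. The interval of Exoc4, 0.05 to 0.37, lay above 0, and those of the other 6 partners included 0. Leaving out NLC replicates 3 and 4, the only NLC females, compares the genotypes in males alone. The values of Exoc5 and Exoc6 were then lower, at -0.21 (edgeR adjusted p = 0.344) and -0.25 (edgeR adjusted p = 0.191). In the fit with a mean per sex and genotype, the male 95% intervals were -0.46 to 0.03 for Exoc5 and -0.44 to -0.05 for Exoc6. In females they were -0.24 to 0.24 and -0.16 to 0.23. In males a larger fall of these partners than the bounds over both sexes is thus left possible. The difference between Exoc2 and its partners was not tested, because the Exoc2 contrast chose the set.

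The partners' summed level was 257.0, 257.2, 281.1 and 282.6 CPM in KO replicates 1 to 4 and 260.1, 269.2, 252.9 and 257.4 CPM in NLC replicates 1 to 4. The groups overlapped, with the female KO libraries highest. Exoc2 made up 4.60%, 5.24%, 4.36% and 4.40% of the summed CPM of all 8 subunits in KO, and 7.34%, 7.28%, 7.43% and 7.80% in NLC. The log2 ratio of Exoc2 to the partners' sum averaged -4.36 ± 0.128 in KO and -3.63 ± 0.0486 in NLC (SD, n = 4 each), a difference of -0.73. Against the geometric mean of the partners, in which each subunit weighs the same, the difference was -0.71. Relative to its own partners, Exoc2 differed by about as much as on the scale of all genes.

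Within groups, the deviations of log2 CPM from the group mean are a description over 8 libraries that share depth and scaling. Between partners (21 pairs) they correlated at a median r of 0.23, from -0.47 to 0.87, the highest being Exoc4 with Exoc5. Between Exoc2 and the partners (7 pairs) the median r was -0.19, from -0.82 with Exoc7 to 0.47 with Exoc3.

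Leaving out each library in turn gave log2 fold changes of Exoc2 from -0.73 to -0.65. The call through which Exoc2 had been chosen was lost without NLC replicate 1 or 2 or any 1 KO replicate. With the atrial marker score as a covariate the log2 fold change was -0.66. Some endothelial and other markers, given above, differed between the genotypes at an unadjusted edgeR p under 0.05. None of the markers passed the adjusted threshold, and their part in the Exoc2 difference was not tested.

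The choice of genes did not use the difference between the sexes. The KO minus NLC values of Exoc2 within each sex are parts of the contrast that chose it, and are a description. In males the KO minus NLC difference of Exoc2 was -0.65 (SE 0.109) on the log2 scale, and in females -0.71 (SE 0.110). The difference between these, male minus female, was 0.05 (95% interval -0.29 to 0.40, edgeR adjusted p = 0.934). None of the 8 subunits passed the test of the difference between sexes by edgeR or DESeq2. Over all genes tested edgeR called 0%, and DESeq2 called 15 genes. At an unadjusted p under 0.05 there were 2 of 8 subunits, against 7.46% of all genes tested. These were Exoc4, with 0.08 in males and 0.35 in females, and Exoc6, with -0.25 in males and 0.04 in females, both with an edgeR adjusted p of 0.648. By the library numbers in the labels, both male KO libraries precede both male NLC libraries, so in males anything that follows this order cannot be told apart from genotype, while the female libraries of the groups interleave.

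**Figure D2:**
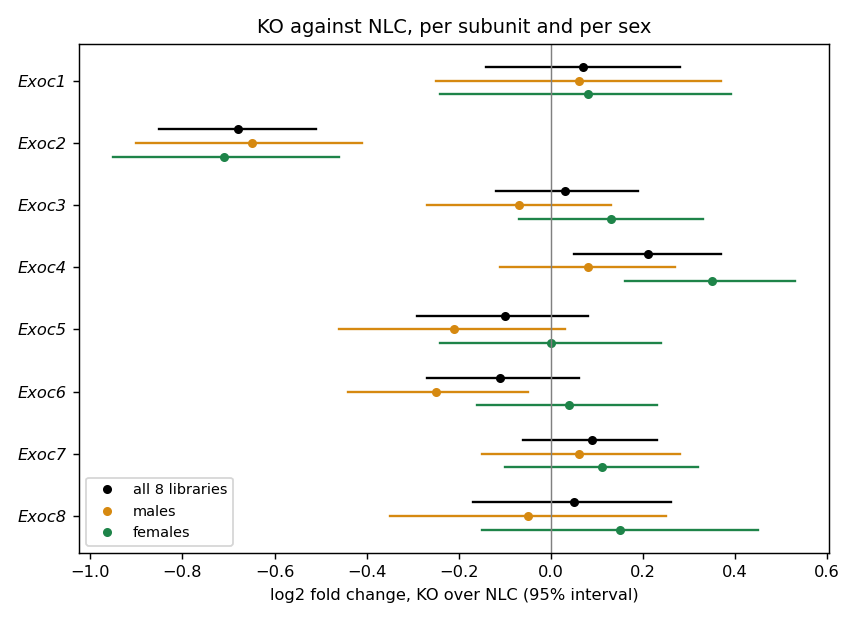
Log2 fold change of KO over NLC with its 95% interval for each subunit, over all 8 libraries (black), in males (orange) and in females (green). The 3 Exoc2 points lie near each other (-0.68, -0.65 and -0.71) and are shown as a description, and the intervals of the partners include 0, except Exoc4 over all libraries and in females and Exoc6 in males.

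Male and female ventricles were also compared. None of the 8 subunits passed male against female by edgeR or DESeq2, while edgeR called 0.299% of all genes tested and DESeq2 called 216 genes. At an unadjusted p under 0.05 there were 0 of 8 subunits, against 12.8% of all genes tested. Exoc5 had the smallest p, at 16.6 ± 1.63 CPM in males and 18.7 ± 0.835 CPM in females (SD, n = 4 each, log2 difference -0.17, SE 0.0818, edgeR adjusted p = 0.406). Exoc2 differed by 0.01 (SE 0.0757, 95% interval -0.15 to 0.18, edgeR adjusted p = 0.955).

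Levels of different subunits were set side by side per kilobase of annotated exon (FPKM). Exoc3 was the most abundant in all 8 libraries, at 13.6 ± 0.738 FPKM (SD, n = 8 over both groups). Exoc7 (10.5 ± 0.576 FPKM) and Exoc6 (10.3 ± 0.696 FPKM) followed and changed places between libraries, Exoc7 being above Exoc6 in 4 of 8. Exoc4 stood at 3.92 ± 0.428 FPKM and Exoc8 at 3.34 ± 0.280 FPKM, with Exoc4 above in 7 of 8. Exoc2 came next at 1.88 ± 0.113 FPKM in KO and 3.01 ± 0.0928 FPKM in NLC, and it was below Exoc8 in 7 of 8 libraries. Exoc1 (1.51 ± 0.142 FPKM) and Exoc5 (0.980 ± 0.0905 FPKM) were the lowest in all 8 libraries.

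This order depends on the length used. Exoc5 has 17988 annotated exon bases and Exoc1 12042, many of them outside the principal transcript. Per kilobase of the principal transcript, a measure added after the values were seen, Exoc3 led at 16.6 ± 0.900 FPKM and Exoc5 was last at 1.39 ± 0.128 FPKM. Exoc4 then reached 10.3 ± 1.12 FPKM, level with Exoc6 at 10.3 ± 0.696 FPKM, and Exoc1 lay above Exoc2 in 7 of 8 libraries. On this scale Exoc2 stood at 2.99 ± 0.180 FPKM in KO, beside Exoc8 at 3.39 ± 0.248 FPKM in KO. In NLC the order of these was the other way, with Exoc2 at 4.79 ± 0.148 FPKM and Exoc8 at 3.28 ± 0.337 FPKM.

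**Figure D3:**
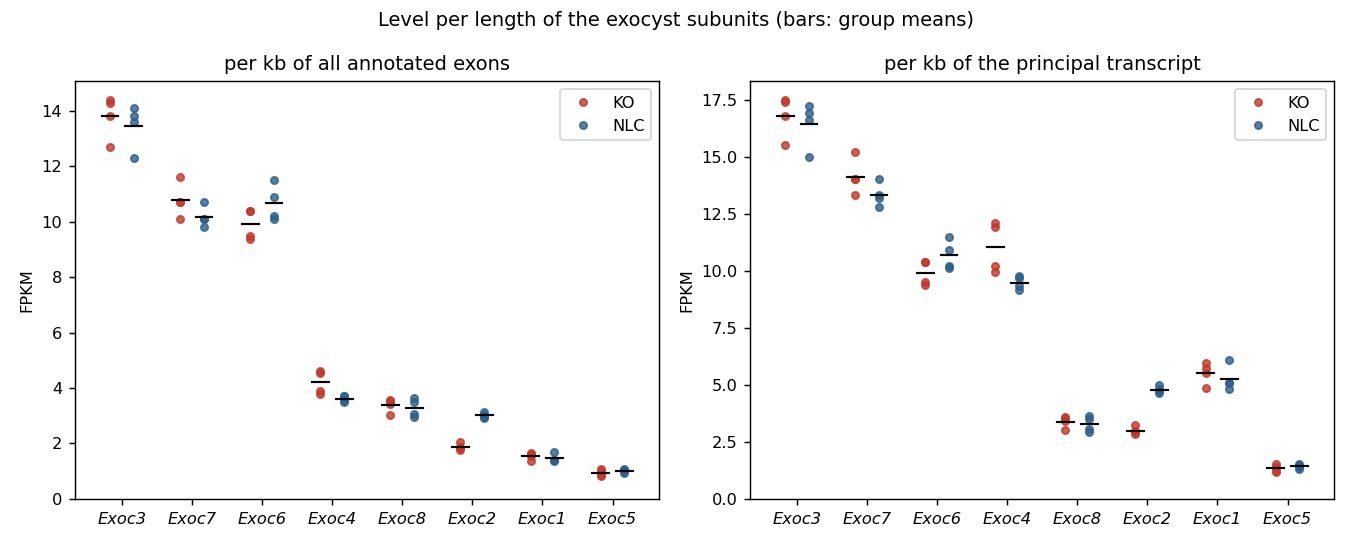
FPKM of each subunit per kilobase of all annotated exons (left) and of the principal transcript (right), each point being a library, KO left of NLC for each gene, and black bars the group means. Exoc3 is highest and Exoc5 lowest by both lengths, and Exoc2 is the subunit whose KO and NLC points stand farthest apart for its level.

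The subunits differ widely in genomic span, and in these libraries longer genes had lower median fold changes. The median log2 fold change was 0.09 over the 4089 genes tested of up to 10 kb, 0.014 at 10 to 30 kb, -0.054 at 30 to 100 kb, -0.102 over the 1567 genes at 100 to 300 kb, and -0.117 over the 372 genes above 300 kb. Exoc2, at 160.2 kb, lay at -0.68 where its span range had a median of -0.102, and 4.47% of the genes in that range were below -0.5. Exoc6, at 133.6 kb in the same range, lay at -0.11, near that median. Exoc4 is the longest subunit at 724.9 kb, and its 0.21 lay above the median of its range. Exoc8 at 4.6 kb, Exoc7 at 19.2 kb, Exoc3 at 39.2 kb, Exoc1 at 41.0 kb and Exoc5 at 62.6 kb lay between -0.10 and 0.09.

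**Figure D4:**
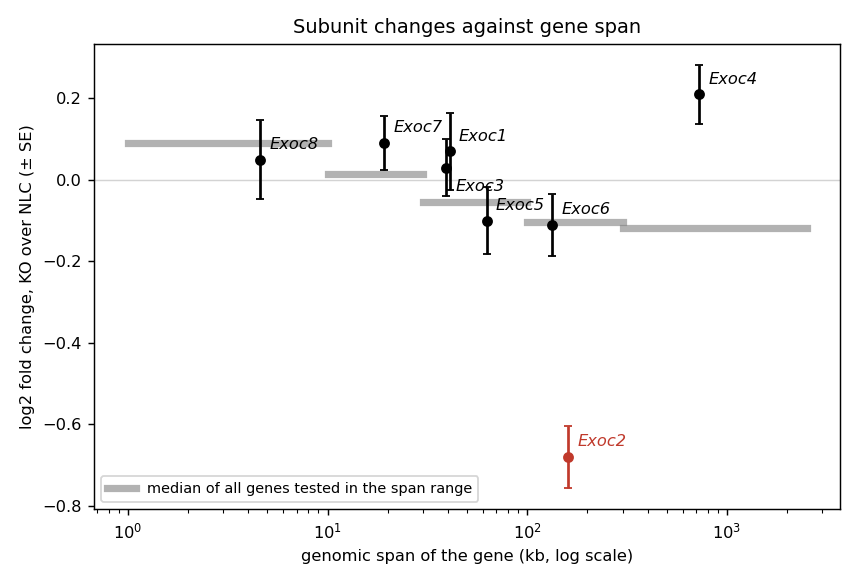
Log2 fold change of KO over NLC (± SE) of each subunit against its genomic span in kb on a log axis; grey bars are the medians of all genes tested in 5 span ranges, the outer bars being cut at the ends of the plot. Exoc2 (red) lies far below the median of its range (-0.68 against -0.102), and Exoc4, the longest, lies above the median of its own.

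Within 250 kb of Exoc2, 2 neighbouring genes passed the filter on low counts. Dusp22, a dual-specificity phosphatase, averaged 17.4 CPM in KO and 18.1 CPM in NLC (log2 fold change -0.06, SE 0.0758, edgeR adjusted p = 0.760). Irf4, a transcription factor of lymphocytes, averaged 0.746 CPM in KO and 0.821 CPM in NLC (log2 fold change -0.14, SE 0.329, edgeR adjusted p = 0.877). Hus1b, which lies inside Exoc2 on the same strand and shares 0 exon bases with it, had 8 reads in KO and 2 in NLC. Exoc5 shares 528 exon bases with Ap5m1 on the opposite strand, and since the strand setting of the counting is not given in the sources used here, its value carries that uncertainty. The other 6 subunits share no exon bases with another counted gene.

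Relatives of the subunits were described next. Exoc6b, a paralog of Exoc6, averaged 22.3 ± 1.32 CPM in KO and 21.7 ± 1.66 CPM in NLC (log2 fold change 0.04, SE 0.0814, edgeR adjusted p = 0.848). Exoc3l4 and Exoc3l2, relatives of Exoc3, stood at 0.33 (SE 0.164) and 0.31 (SE 0.280), and Tnfaip2 at -0.06 (SE 0.0984). None of the 5 measured relatives passed by edgeR, and 0 had an unadjusted p under 0.05. Reads that fit Exoc6 and Exoc6b equally are not counted for either.

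The GTPases that recruit the complex were then described. None of 13 passed by edgeR, and at an unadjusted p under 0.05 there was 1 higher and 1 lower. Among all genes tested 5.77% were higher and 6.18% lower at that level, which also serves the lists that follow. Rala and Ralb, whose products bind Exoc2, stood at 0.05 (SE 0.0607) and -0.01 (SE 0.0847) on the log2 scale. Rhoq averaged 119 ± 5.08 CPM in KO and 139 ± 18.7 CPM in NLC (log2 fold change -0.22, SE 0.0833, edgeR adjusted p = 0.350). Rab3ip, an activator of Rab8, stood at 0.17 (SE 0.0764, edgeR adjusted p = 0.416).

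Regulators of Ral gave 0 of 9 members past the threshold by edgeR, with 1 higher and 2 lower at an unadjusted p under 0.05. Ralgapa2, a catalytic subunit of the complex that switches Ral off, averaged 59.1 ± 4.97 CPM in KO and 74.9 ± 8.83 CPM in NLC (log2 fold change -0.34, SE 0.0963, edgeR adjusted p = 0.266). Ralgapa1, the other catalytic subunit, stood at -0.19 (SE 0.0780), and both genes span over 200 kb (272.5 and 218.3 kb). Rgl3, an exchange factor that switches Ral on, averaged 17.5 ± 0.813 CPM in KO and 14.5 ± 1.22 CPM in NLC (log2 fold change 0.27, SE 0.0839, edgeR adjusted p = 0.320).

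Downstream of tethering, 0 of 13 SNARE genes and their regulators passed by edgeR, with Stxbp5 at -0.21 (SE 0.0785) and Stx4a, the syntaxin of GLUT4 vesicle fusion, at 0.19 (SE 0.0769) having an unadjusted p under 0.05. Of 11 genes of GLUT4 traffic 0 passed, with 1 higher and 2 lower at an unadjusted p under 0.05. Rhoq, also in the list with the GTPases, is 1 of the lower genes. In the GLUT4 list 8 of 11 log2 fold changes were below 0, with a median of -0.17. The lowest were Tbc1d1 at -0.55 (SE 0.267) and Sort1 at -0.51 (SE 0.288), both with a wide spread in NLC. Tbc1d1 averaged 16.1 ± 3.26 CPM in KO and 23.9 ± 13.5 CPM in NLC. Sort1 averaged 29.3 ± 3.89 CPM in KO and 42.8 ± 24.4 CPM in NLC. Over all genes tested 51.0% were below 0, with a median of -0.00504. The medians of the other pathway lists ran from -0.04 to 0.13. Slc2a4, which encodes GLUT4 itself, averaged 466 ± 35.8 CPM in KO and 469 ± 28.9 CPM in NLC. Tbc1d4, the Akt substrate that holds GLUT4 inside the cell, stood at -0.29 (SE 0.103, edgeR adjusted p = 0.350) and Myo1c, a motor of GLUT4 vesicles, at 0.16 (SE 0.0668, edgeR adjusted p = 0.403). Tbk1, the kinase linked to Exoc2 through RalB, stood at -0.10 (SE 0.0712, edgeR adjusted p = 0.542), and 0 of 4 genes of this signalling list passed. In it 1 gene was lower at an unadjusted p under 0.05, Tmem173 at -0.28 (SE 0.124, edgeR adjusted p = 0.413). Irf3 stood at 0.23 (SE 0.125, edgeR adjusted p = 0.464).

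Other complexes that tether vesicles served as a comparison for size. These were COG of the Golgi, GARP and EARP, NRZ of the endoplasmic reticulum, and HOPS and CORVET of endosomes and lysosomes. Their 24 subunits had log2 fold changes of -0.16 to 0.16 with a median of 0.00. None passed by edgeR, and 1, Cog3 at -0.16 (SE 0.0707, edgeR adjusted p = 0.411), had an unadjusted p under 0.05. Cog5, at 282.8 kb, stood at -0.07 (SE 0.0900). Over all 78 measured pathway genes outside the 8 subunits 0 passed, and 11 had an unadjusted p under 0.05, 7 of them lower and 4 higher in KO. By DESeq2 and limma voom 0 of them passed as well.

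The genes whose profile over the 8 libraries was most like that of Exoc2 were picked by Pearson correlation of log2 CPM among 9878 named genes of at least 5 CPM. These were Klhl4, a kelch-like gene (r = 0.972), Slc23a2, a vitamin C transporter (r = 0.968), Tent4b, a poly(A) polymerase (r = 0.948), and Ppp2r3a, which directs the phosphatase PP2A (r = 0.945). These r describe 8 libraries that fall into 2 groups and share the group difference, so no test is given. Klhl4 averaged 4.37 ± 0.414 CPM in KO and 6.46 ± 0.332 CPM in NLC, and Ppp2r3a averaged 149 ± 20.7 CPM in KO and 285 ± 40.5 CPM in NLC. Slc23a2 differed less, with 20.4 ± 0.336 CPM in KO and 22.7 ± 0.334 CPM in NLC, and Tent4b averaged 20.2 ± 0.827 CPM in KO and 23.0 ± 0.231 CPM in NLC.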

How the data were processed

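The authors deposited raw counts of reads per Ensembl gene, 1 file per library. The tools named in the submitters' processing notes are STAR, HTSeq and DESeq2, with GRCm38 as the build; neither versions nor the strand setting or annotation release of the counting were in the sources used here. Each file ends with 5 summary entries, which were left out (multiply mapped reads were 16.8% to 20.3%, reads outside genes 3.07% to 4.08%, ambiguous reads 1.26% to 1.38%).

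Symbols, spans and exon lengths came from GENCODE M21, in which 55227 identifiers had a symbol; promoter windows (250 bases before to 50 after the start) came from RefSeq (GRCm38.p6), and all 8 subunits matched. KO was tested against NLC with edgeR 4.0.16 (R 4.3.3) by quasi-likelihood, with filterByExpr by genotype, TMM scaling and sex as a term. Effects within each sex and their difference came from a cell-means model. Adjustment was by Benjamini-Hochberg over 14695 genes, with a threshold of 0.05. FPKM divides CPM by kilobases of exon. SE is that of the log2 fold change. Replicates are biological per the series' design. The fit was tested on simulated data.

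Named were all subunits, up to 4 members of each pathway list by p, filtered genes within 250 kb of Exoc2, and the 4 named genes of at least 5 CPM most correlated with it. Rala, Ralb, Slc2a4, Sort1 and Cog5 fall outside this rule and were chosen after their values were seen. Members and lists were chosen with earlier results of these data known. DESeq2 1.42.0 and limma 3.58.1 (voom) were among the alternatives. A count of 0 allows up to 0.0757 to 0.118 CPM (3 counts), for counting error only.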

Additional observations from a re-analysis of the deposited data

Results flagged for a closer look

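The summed level of the 6 atrial markers was 6151 CPM in NLC replicate 4, far from the 388.5, 406.6 and 841.7 CPM of the other NLC libraries. Of 38 groups of 4 libraries examined, it was the only one with a sample this far from the rest. By chance about 1 in 20 such groups would hold such a sample, so 1 among 38 is no more than chance gives. Exoc2 stood at 21.79 CPM in that library and at 20.31 to 21.13 CPM in the other NLC libraries.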

How the results depend on the processing

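The log2 fold change of Exoc2 stayed between -0.73 and -0.65 over 20 alternatives. Exoc2, whose call chose the set, was the only subunit called (a count of 1) with DESeq2, limma voom, other scalings or filters, no mitochondrially encoded genes, no sex term, the atrial score or a threshold of 0.1. The count was 0 with the replicate number as a block (log2 fold change -0.68). It was also 0 without NLC replicates 3 and 4 (-0.65, where Exoc3 stood at -0.07, Exoc8 at -0.05, Exoc5 at -0.21 and Exoc6 at -0.25). These are the only NLC females, so with sex as a term that fit compares KO with NLC in males alone. Its fold changes are those of the males, in which genotype and library order cannot be told apart. With each library left out the count was 0 to 1 (-0.73 to -0.65, a count of 1 without NLC replicate 3 or 4). The cause of these lost calls was not tested. Replicate numbers did not pair the samples: the deviations of same-numbered libraries correlated at 0.25, 0.09, -0.21 and 0.09, and not every library was closest to its own number. Leaving out single libraries turned the signs of Exoc3 (-0.02 to 0.07) and Exoc8 (-0.02 to 0.12), while the other partners did not change sign in any alternative. The difference in the log2 ratio of Exoc2 to its partners ran from -0.79 to -0.70. With no filter on low counts 3 pathway genes passed (Ralgapa2, Sort1 and Tbc1d1), against 0 otherwise. Sort1 and Tbc1d1 had a wide spread between NLC libraries (42.8 ± 24.4 and 23.9 ± 13.5 CPM). Counts over all genes moved more: 15 as reported, 150 by DESeq2, 621 with no filter, 6 without sex, 0 with the block, 29 with the atrial score, 30 at a threshold of 0.1, 44 without NLC replicates 3 and 4, and 0 to 50 with single libraries left out. No subunit passed either sex comparison with DESeq2 or with a library left out. At 346 to 630 reads per library, counting error limits Exoc2 to about 0.663 CPM in KO and 0.877 CPM in NLC.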
